A study of Mus musculus with 9 samples.

Results

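The effect of adding TTM to copper oxide nanoparticles (CuO NPs) was measured in MH-S, a line of alveolar macrophages from mouse. The labels give the compound only by its 3 letters, which in work on copper are the usual short form of tetrathiomolybdate, a chelator of the metal. The comparison set 3 libraries from cultures with both 20 µg/ml CuO NPs and 10 µM TTM against 3 libraries with the particles alone at the same dose. The values of 3 control libraries, without particles or TTM, are printed beside them for part of the genes, and all cultures lasted 24 h. Where they are left out, the text does not show whether a change goes towards control or away from it. Every gene with at least 1 TPM in at least 3 of the 6 libraries compared was included, 12459 of the 56980 gene identifiers. TPM is an abundance of transcripts scaled for their length and to 1 fixed total per library, so levels can be set beside each other between genes. No group was given TTM without nanoparticles, so the values show TTM only on top of the particles. MH-S is a single line, transformed with SV40, and the labels do not say that the 3 libraries of a group came from separate cultures. The p-values therefore measure the spread between these samples, which may be technical.

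Copper ions released from CuO particles are bound inside cells by metallothioneins, whose genes are switched on by the zinc-sensing transcription factor MTF1. Copper also reacts with thiols and displaces iron from iron-sulfur clusters, and it binds lipoylated enzymes of the tricarboxylic acid cycle, the route to the form of cell death called cuproptosis. Stressed cells answer through NRF2 (antioxidant and glutathione genes), HSF1 (heat shock proteins), and ATF4 with CHOP (amino acid supply and the integrated stress response). Macrophages of the lung take up inhaled particles through scavenger receptors such as MARCO.

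As examples, the promoters of 7 genes of the metal, antioxidant, heat shock, sterol and amino acid responses are shown here. All 7 promoters hold a match to the element of their response, so they do not show how common it is. Each is the run of 250 bases just before the annotated start of transcription, 5′ to 3′ on the strand of the gene, from RefSeq on build GRCm38.p6. That is another build than GRCm39, which the submitters' processing notes name. Capitals mark matches, on either strand, to the core of the metal response element (TGCACNC or TGCGCNC) in Mt2 and Mt1 and to the core of the antioxidant response element (TGACNNNGC) in Prdx1. They mark the heat shock element (GAANNTTC) in Hspa1a, the sterol regulatory element (TCACNCCAC) in Hmgcs1, and the composite site of CHOP and ATF4 (TGATGNAA) in Asns and Slc7a11.
Mt2, chr8:94172368-94172617, plus strand: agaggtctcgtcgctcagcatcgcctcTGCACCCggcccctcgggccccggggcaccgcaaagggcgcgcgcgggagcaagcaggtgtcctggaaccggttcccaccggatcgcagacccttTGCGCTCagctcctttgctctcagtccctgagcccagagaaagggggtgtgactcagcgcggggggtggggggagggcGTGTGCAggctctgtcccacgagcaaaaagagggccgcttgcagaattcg
Mt1, chr8:94178839-94179088, plus strand: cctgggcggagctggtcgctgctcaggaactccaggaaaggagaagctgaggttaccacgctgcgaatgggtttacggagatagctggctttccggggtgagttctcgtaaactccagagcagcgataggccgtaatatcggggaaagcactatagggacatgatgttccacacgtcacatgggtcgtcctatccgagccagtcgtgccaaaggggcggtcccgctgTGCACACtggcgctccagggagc
Prdx1, chr4:116685349-116685598, plus strand: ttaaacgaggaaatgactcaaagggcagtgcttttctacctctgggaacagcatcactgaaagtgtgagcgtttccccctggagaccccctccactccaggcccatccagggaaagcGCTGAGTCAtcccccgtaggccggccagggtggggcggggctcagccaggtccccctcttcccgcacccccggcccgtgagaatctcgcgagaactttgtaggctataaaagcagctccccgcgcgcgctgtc
Hspa1a, chr17:34972157-34972406, minus strand: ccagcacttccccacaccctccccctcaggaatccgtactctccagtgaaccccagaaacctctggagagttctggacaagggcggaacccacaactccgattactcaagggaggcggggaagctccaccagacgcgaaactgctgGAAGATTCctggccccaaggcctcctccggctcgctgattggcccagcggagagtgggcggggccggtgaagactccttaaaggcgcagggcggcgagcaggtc
Hmgcs1, chr13:119690101-119690350, plus strand: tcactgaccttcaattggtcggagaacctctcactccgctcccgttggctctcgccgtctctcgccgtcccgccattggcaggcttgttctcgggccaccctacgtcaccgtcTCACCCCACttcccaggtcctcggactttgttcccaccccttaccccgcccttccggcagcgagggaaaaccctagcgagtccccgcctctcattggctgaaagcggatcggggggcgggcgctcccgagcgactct
Asns, chr6:7693210-7693459, minus strand: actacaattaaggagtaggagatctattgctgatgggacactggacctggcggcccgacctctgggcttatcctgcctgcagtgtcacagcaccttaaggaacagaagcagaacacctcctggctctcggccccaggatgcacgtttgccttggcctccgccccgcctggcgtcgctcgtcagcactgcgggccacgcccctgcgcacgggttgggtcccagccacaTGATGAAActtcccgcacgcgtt
Slc7a11, chr3:50443614-50443863, minus strand: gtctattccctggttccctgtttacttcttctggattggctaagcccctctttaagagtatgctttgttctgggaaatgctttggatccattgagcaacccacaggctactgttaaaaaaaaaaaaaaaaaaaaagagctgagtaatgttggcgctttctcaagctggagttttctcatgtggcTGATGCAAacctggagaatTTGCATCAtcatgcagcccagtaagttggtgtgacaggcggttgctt
Over whole windows from 250 bases before to 50 after a start, the metal element core was found in 6 of 7 windows of the metallothionein and zinc export list and in 25.7% of all 32851 windows of the mouse table. The antioxidant element core was in 13 of 43 windows of NRF2 targets and in 12.4% of all windows. The heat shock element was in 15 of 34 windows of HSF1 targets and in 7.86% of all windows, the CHOP and ATF4 site in 11 of 42 windows of ATF4 and CHOP targets and in 3.97% of all. The sterol element was in 1 of 20 windows of cholesterol genes, that of Hmgcs1, and in 1.24% of all. These matches describe letters in a window and are not measured binding.

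Read depth is unknown, since TPM keeps no record of it, and the 9 libraries each listed 19710 to 20863 genes above 0. Across the genes tested, Pearson correlations of log2(TPM + 1) were 0.982 to 0.985 within the CuO NP group, 0.982 to 0.986 within the group with TTM, and 0.947 to 0.960 between them. Genes are not independent replicates, so these values only describe the libraries. The macrophage genes Csf1r, C1qb and Spi1 were present in every library, and the tested part of the alveolar macrophage list was 12 of its 24 genes, with Siglecf, Pparg and Car4 among those that did not reach the filter. Marker sums of other cell types ranged over all 9 libraries from 0.11 to 0.76 TPM for 13 epithelial genes and from 0.28 to 3.61 TPM for 13 lymphocyte genes. In RNA of a whole culture, fewer cells with a transcript and less of it per cell cannot be told apart.

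TTM changed the levels of many genes by small amounts. A linear model fitted by limma to log2(TPM + 1) of all 9 libraries, with p-values adjusted by Benjamini-Hochberg over all genes tested, called 6830 of 12459 genes (54.8%) at an adjusted p below 0.05. Of these, 4461 (35.8% of genes tested) were higher with TTM and 2369 (19%) were lower, with medians of 0.53 and -0.46 on the log2 scale. Most calls were small: 4095 of the 6830 (60.0%) were under 1.5-fold, and 758 genes (6.08% of those tested) changed at least 2-fold. Of the latter, 530 were higher (4.25%) and 228 lower (1.83%). For 7555 genes (60.6%) no library of one group fell within the range of the other, and these were 39.2% higher and 21.5% lower of all genes tested. All fold changes are differences on the log2(TPM + 1) scale, which understates the change of genes with few TPM. A gene at 1 TPM or more in the libraries of only 1 of the 2 groups passed through the group where it is high, so its direction was set by the filter. This holds for 105 genes seen with CuO NPs alone, of which 98 were called lower, and for 180 seen with TTM, of which 166 were called higher. The gene lists hold 1202 genes, of which 1073 passed the filter, 9 and 2 of them in these ways.

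The balance of directions depends on how libraries are scaled to each other. The median gene was 0.12 higher with TTM on the log2 scale, and after median-of-ratios scaling, which moved it to 0.00, 3393 genes were called higher (27.2%) and 3485 lower (28%). The higher share of all calls thus went from 65.3% to 49.3%. Each list is therefore given with its counts under TPM and then under median-of-ratios scaling, and its median is to be read against 0.12. The counts are to be read against the shares of all genes tested. These were 35.8% higher and 19% lower under TPM, and 27.2% and 28% under median-of-ratios scaling. The changes also moved with the base composition of the transcripts: 44.2% of genes in the fifth with the highest GC content were called higher, and 25.2% in the fifth with the lowest. Its part in single results was measured only by centring the values within GC bins, which left 4413 genes higher and 2361 lower.

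**Figure D1:**
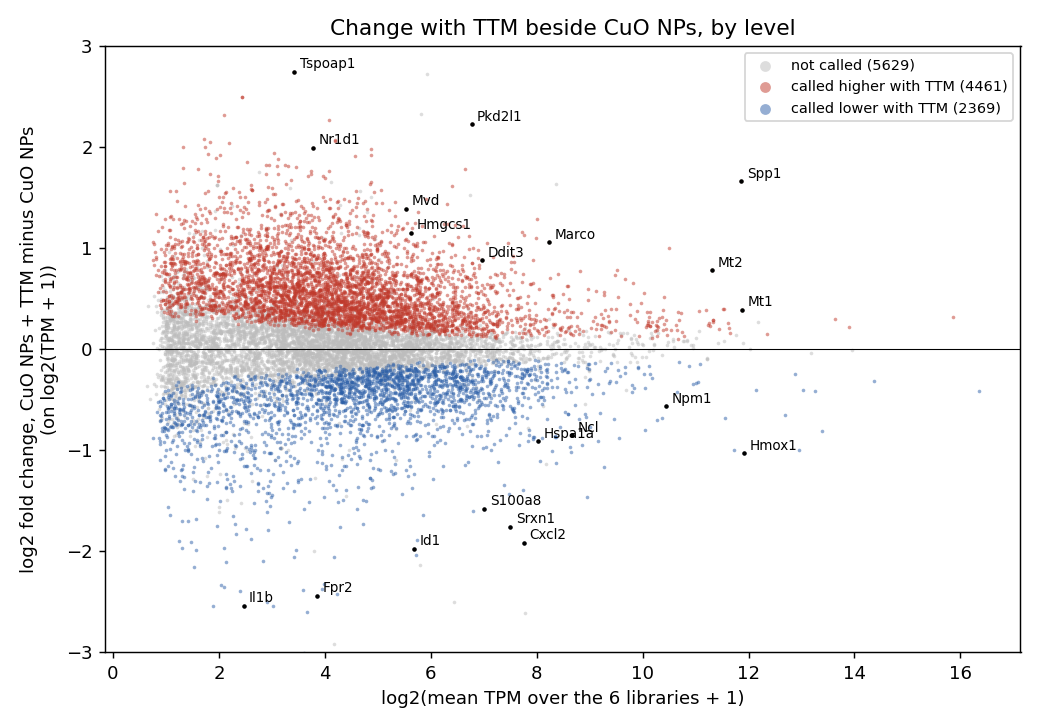
Each point is 1 gene, its log2 fold change (CuO NPs + TTM minus CuO NPs, on log2(TPM + 1)) against the log2 of its mean TPM plus 1 over the 6 libraries. Red points are the 4461 genes called higher, blue points the 2369 called lower and grey points those not called, and the 8 genes changed more than 8-fold lie outside the axis. The genes named were picked by hand. Those of the inflammatory and NRF2 lists lie below 0, where 5 of 45 and 9 of 38 tested members of these lists were called higher. Spp1, Pkd2l1 and the named sterol genes lie above 0.

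The metallothioneins, small proteins that bind copper and zinc, were higher with TTM than with particles alone, while the zinc exporter and the metal-sensing factor were lower. All 4 tested members of the list were called, 2 higher and 2 lower, as they were under median-of-ratios scaling. Mt2 (ENSMUSG00000031762) read 315, 334 and 333 TPM in the 3 control libraries, 1801, 1858 and 1948 TPM in the 3 CuO NP libraries and 2918, 3199 and 3523 TPM in the 3 libraries with TTM (log2 fold change 0.78, SE 0.07, limma adjusted p = 1.27e-05). The 3 groups did not overlap, and every library with TTM lay above every CuO NP library. Mt1 (ENSMUSG00000031765) read 627, 671 and 659.6 TPM in control, 3208, 3131 and 3390.3 TPM with CuO NPs and 3831, 4299 and 4636 TPM with TTM (log2 fold change 0.39, SE 0.07, limma adjusted p = 8.95e-04). Its groups did not overlap either, and the difference was 0.26 (adjusted p = 0.0407 from limma) under median-of-ratios scaling and 0.21 (adjusted p = 0.0767 from limma, not called) with libraries centred on their median gene. Slc30a1 (ENSMUSG00000037434), which exports zinc from the cytosol and is itself a target of MTF1, read 12.2, 12.3 and 11.6 TPM with CuO NPs and 7.75, 7.73 and 9.01 TPM with TTM, against 3, 2.89 and 2.90 TPM in control (log2 fold change -0.51, SE 0.09, limma adjusted p = 8.20e-04). Its level with TTM was below all CuO NP libraries and above all controls. Mtf1, the factor itself, read 14.7, 19.6 and 15.2 TPM with CuO NPs and 10.8, 9.27 and 11.2 TPM with TTM (log2 fold change -0.61, SE 0.11, limma adjusted p = 0.00128), beside 15.8, 16.7 and 15.9 TPM in control. The metallothionein genes and the other 2 members of this list thus moved in opposite directions.

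Of the 19 tested copper-handling genes, 8 rose (42.1%) and 3 fell (15.8%), beside 35.8% and 19% of all genes tested. Under median-of-ratios scaling 7 rose and 5 fell, and the list's median of 0.05 turned to -0.08. That median was 0.01 without CuO NPs + TTM replicate 2, 0.02 without CuO NPs replicate 2, and 0.08 without replicate 3 of either group, so it gives the list no direction. Slc31a1, the plasma membrane copper importer, read 45, 47.8 and 47.4 TPM with CuO NPs and 58.4, 63.4 and 60.2 TPM with TTM (log2 fold change 0.37, SE 0.05, limma adjusted p = 3.04e-04). Atp7a, the ATPase that pumps copper into the secretory pathway and out of the cell, read 8.70, 11.4 and 9.68 TPM and 15.0, 15.7 and 15.9 TPM in the same order (log2 fold change 0.60, SE 0.11, limma adjusted p = 0.00126). In control cells both read close to the level with TTM, 60.3, 57.6 and 56.3 TPM for Slc31a1 and 19.5, 17.3 and 15.3 TPM for Atp7a. The copper-binding prion protein gene Prnp had the largest rise of the list, from 6.50 ± 0.443 TPM to 19.0 ± 0.656 TPM (here and for other levels with ±, mean and SD of the 3 libraries of a group). The ferroxidase ceruloplasmin, Cp, rose from 2.01 ± 0.146 TPM to 4.07 ± 0.753 TPM and the copper-dependent amidating enzyme Pam from 12.4 ± 1.39 TPM to 21.1 ± 2.62 TPM. Lower with TTM were Sco2, a copper chaperone of cytochrome c oxidase (-1.03), Coa6, another factor of its assembly (-0.38), and Sod1, copper-zinc superoxide dismutase (-0.21). Sco2 fell from 19.6 ± 2.97 TPM to 9.09 ± 1.88 TPM and lay further from its control level, 27.7 ± 1.88 TPM, than with particles alone.

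Genes of cuproptosis and protein lipoylation were mostly higher with TTM, 12 of 17, and 2 were lower (9 and 3 under median-of-ratios scaling), with a median of 0.31. Dbt, the core of branched-chain ketoacid dehydrogenase, read 11.7, 15.8 and 13.4 TPM with CuO NPs and 27.4, 26.2 and 24.6 TPM with TTM (log2 fold change 0.90, SE 0.10, limma adjusted p = 7.74e-05), and 27.0, 24.0 and 23.8 TPM in control. Dlat, the lipoylated subunit of pyruvate dehydrogenase, read 41.7, 41.9 and 43.5 TPM and 60.9, 77.2 and 68.8 TPM (log2 fold change 0.68, SE 0.10, limma adjusted p = 4.02e-04). For both genes all libraries with TTM were above all CuO NP libraries. Lias, lipoic acid synthase, rose by 0.26, a call lost under 4 other scalings, where the adjusted p from limma was 0.0561 to 0.388, and without CuO NPs replicate 3 (0.24). Fdx1, the ferredoxin that reduces copper in cuproptosis, read 20.7, 20.7 and 21.7 TPM and 22.2, 22.7 and 26.1 TPM and was not called (log2 fold change 0.16, limma adjusted p = 0.0855). The 2 that fell were Lipt2, a lipoyl transferase (-0.53), and Gcsh, the lipoylated protein of glycine cleavage (-0.16). The call of Lipt2 was lost without CuO NPs replicate 3 (-0.48) or CuO NPs + TTM replicate 2 (-0.42), and that of Gcsh without CuO NPs replicate 2 (-0.14), CuO NPs replicate 3 (-0.15) or CuO NPs + TTM replicate 3 (-0.12). Of 22 iron-sulfur cluster genes, 9 rose (40.9%) and 3 fell (13.6%), beside 35.8% and 19% of all genes tested. Under median-of-ratios scaling 6 rose and 6 fell. The list's median turned below 0 when libraries were centred on their median gene, and 5 fell without CuO NPs + TTM replicate 3. Hscb, the co-chaperone that hands clusters on, rose from 48.1 ± 4.12 TPM to 91.2 ± 9.86 TPM. Nfu1 and Bola3, which deliver clusters to lipoic acid synthase, rose by 0.84 and 0.85. Among 23 genes of iron handling and ferroptosis, 7 were called higher and 2 lower, but 3 and 7 under median-of-ratios scaling. Fth1, ferritin heavy chain, and Gpx4, which detoxifies lipid peroxides, rose by 0.31 and 0.35 with TPM scaling, and neither was called under median-of-ratios scaling. Fth1 has processed pseudogenes, so the share of reads given to it is uncertain.

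**Figure D2:**
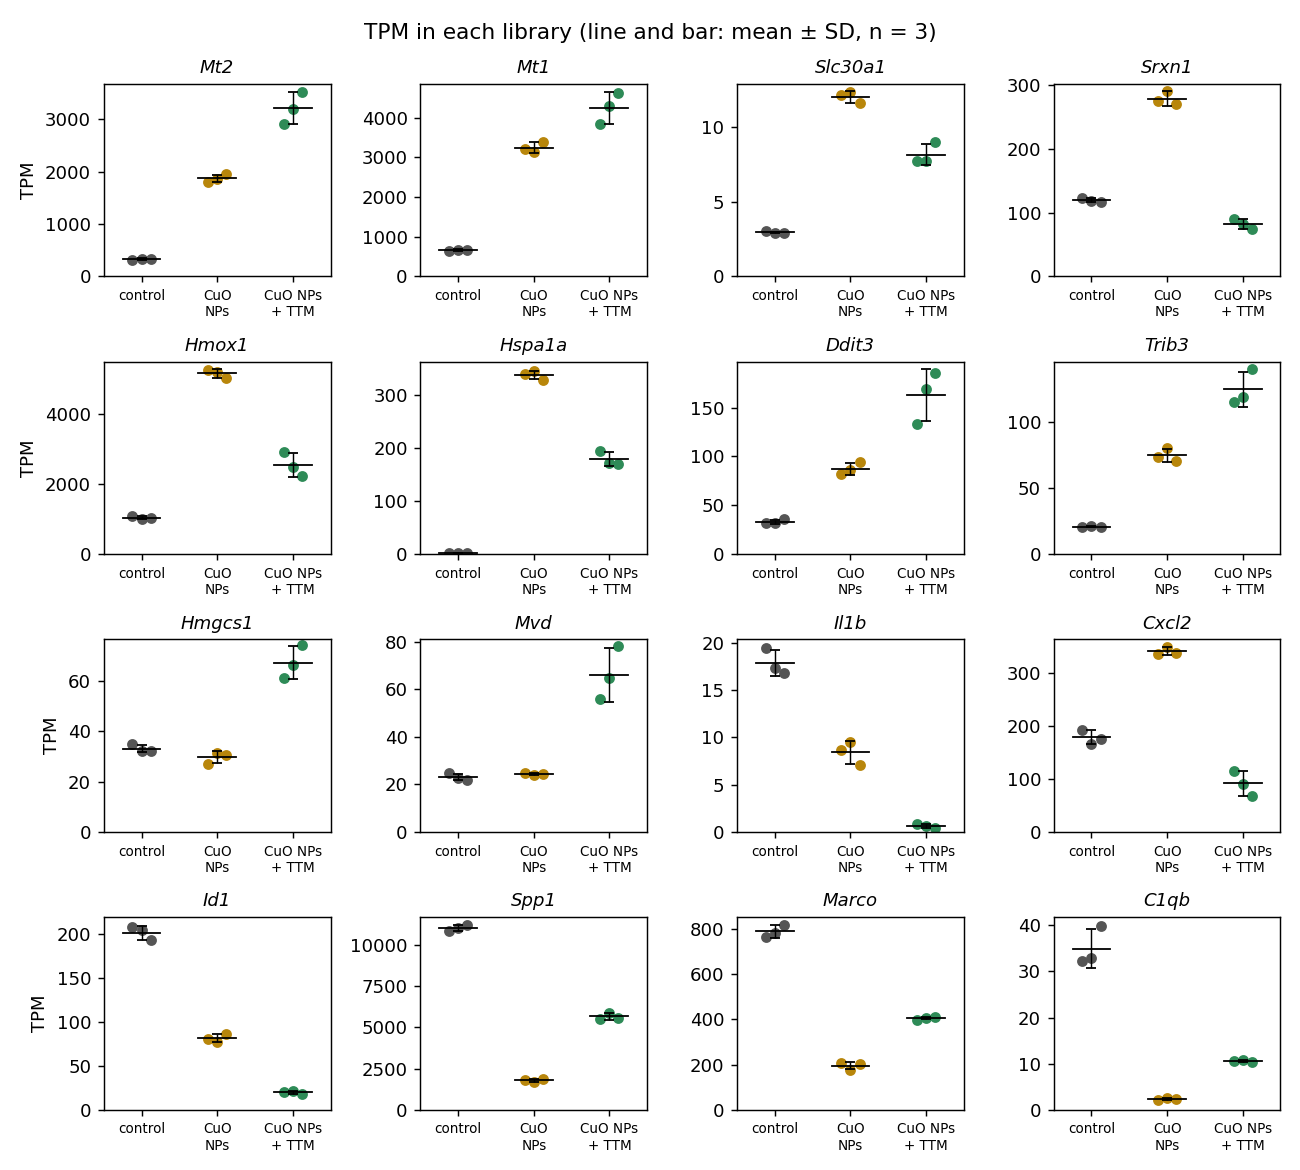
TPM of 16 genes in each of the 9 libraries, with 1 panel per gene and its own vertical axis from 0. Points are libraries, lines are means and bars are SD (n = 3 per group). Mt2 and Mt1 step up again with TTM, Srxn1, Hmox1 and Hspa1a step down, and Il1b is lowest with TTM.

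NRF2 targets were mostly lower with TTM: 22 of 38 fell and 9 rose (25 and 3 under median-of-ratios scaling), with a median of -0.46. Srxn1 (ENSMUSG00000032802), sulfiredoxin, which repairs overoxidised peroxiredoxins, read 123, 117 and 117 TPM in control, 275, 292 and 271 TPM with CuO NPs and 90.3, 81.3 and 74.5 TPM with TTM (log2 fold change -1.76, SE 0.07, limma adjusted p = 3.95e-07). Its libraries with TTM were below those of control as well. Hmox1 (ENSMUSG00000005413), haem oxygenase 1, read 1084, 996 and 1031 TPM in control, 5257, 5213 and 5024 TPM with CuO NPs and 2919, 2487 and 2225 TPM with TTM (log2 fold change -1.03, SE 0.08, limma adjusted p = 1.08e-05). It was lower in every library with TTM than in any CuO NP library, and higher than in any control. Nqo1, a quinone reductase, read 4.64, 6.72 and 3.81 TPM with CuO NPs and 0.91, 1.28 and 1.11 TPM with TTM, where controls had 0.61, 0.95 and 1.04 TPM (log2 fold change -1.50, SE 0.18, limma adjusted p = 1.18e-04). Gclm, the modifier subunit of glutathione synthesis, fell from 309 ± 18 TPM to 117 ± 8.52 TPM beside 106 ± 8.21 TPM in control. Prdx1, the peroxiredoxin whose promoter is shown, fell from 4499.8 ± 32.4 TPM to 2256 ± 136 TPM, beside 2451 ± 12.9 TPM in control. The thioredoxin reductase Txnrd1 (-0.69) and the NADPH-making malic enzyme Me1 (-0.70) fell too. Sqstm1, the autophagy receptor p62, fell from 851 ± 35.2 TPM to 378 ± 14.5 TPM and stayed above its 279 ± 6.66 TPM in control. Osgin1 read 28.6, 29.8 and 30.2 TPM with CuO NPs, near its 30.3, 35.6 and 36.5 TPM in control, and 10.9, 8.55 and 12.7 TPM with TTM. Members that rose included the glutathione transferase Gstp1, from 76.7 ± 5.81 TPM to 126 ± 6.71 TPM, and the carbonyl reductases Cbr3 (0.61) and Cbr1 (0.40). The particles alone had put the list's median at 0.38 from control, and with TTM it was 0.10. Both of these differences use the same 3 control libraries.

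Heat shock genes were also lower with TTM, while Hspa1a, Hsph1 and Dnajb1 stayed above every control library. Of 27 HSF1 targets and cytosolic chaperones, 17 fell and 2 rose (21 and 1 under median-of-ratios scaling), with a median of -0.33. Hspa1a (ENSMUSG00000091971), inducible Hsp70, read 2.82, 2.28 and 1.98 TPM in control, 339, 346 and 329 TPM with CuO NPs and 195, 172 and 171 TPM with TTM (log2 fold change -0.91, SE 0.09, limma adjusted p = 3.00e-05). Its groups did not overlap. Hspa1b, almost identical in sequence so that the division of reads between the pair is uncertain, fell from 186 ± 11.2 TPM to 93.1 ± 8.48 TPM. Dnajb1, an Hsp40 co-chaperone, fell from 150.4 ± 2.63 TPM to 83.0 ± 11.4 TPM, beside 17.8 ± 1.49 TPM in control, and Hsph1, a nucleotide exchange factor of Hsp70, from 523 ± 28.3 TPM to 267 ± 19.3 TPM. Hsp90aa1, the stress-inducible Hsp90, fell as well (-0.80). The 2 that rose were Hspa4l (0.35) and the Hsp90 co-chaperone Fkbp4 (0.25), and the calls were lost with libraries centred on their median gene (0.17) and under median-of-ratios scaling (0.12) respectively. All 4 called subunits of the cytosolic chaperonin, of 8 tested, were lower, from -0.33 for Cct3 to -0.27 for Cct6a, and 5 were at an unadjusted p under 0.05.

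Proteasome subunits moved almost as a block. Of 31, 27 fell and 1 rose under both scalings, with a median of -0.31. The largest falls were in ATPases of the base of the 19S particle. Psmc4 read 173, 187 and 156 TPM with CuO NPs and 99.5, 95.9 and 97.1 TPM with TTM (log2 fold change -0.81, SE 0.07, limma adjusted p = 1.09e-05), and 138, 143 and 129.6 TPM in control. Psmc2 (-0.67), Psmc3 (-0.67) and Psmc5 (-0.66) fell as well, and all 4 genes were below every control library. Psmd8, a non-ATPase subunit of the 19S particle, was the member that rose, from 285 ± 4.64 TPM to 391.7 ± 23 TPM. The median of the list was 0.12 against control with particles alone and -0.20 with TTM.

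Genes of the ATF4 and CHOP response were mostly higher with TTM. Of 36, 22 rose and 6 fell (17 and 7 under median-of-ratios scaling), with a median of 0.28. Ddit3 (ENSMUSG00000025408), which encodes CHOP, read 32.2, 31.4 and 35.4 TPM in control, 82.2, 85.9 and 93.9 TPM with CuO NPs and 133, 169 and 186 TPM with TTM (log2 fold change 0.88, SE 0.11, limma adjusted p = 1.28e-04). The lowest library with TTM was above the highest with particles alone. Trib3, a pseudokinase and target of CHOP, read 73.3, 80.3 and 70.1 TPM with CuO NPs and 115, 119 and 139.6 TPM with TTM (log2 fold change 0.73, SE 0.08, limma adjusted p = 5.41e-05). Atf4 itself rose by 0.30, from 544 ± 11.7 TPM to 673 ± 26.2 TPM. The 4 members with the largest rises were Pycr1 (1.31) and Aldh18a1 (1.23), which make proline, Ndrg1 (1.24), a stress gene that hypoxia also induces, and the mitochondrial folate enzyme Aldh1l2 (0.95). Pycr1 read 10.2, 5.6 and 6.77 TPM with CuO NPs and 18.2, 17.8 and 23.4 TPM with TTM, and Aldh18a1 49.9, 57.2 and 48.1 TPM and 119, 118 and 129 TPM. Pycr1 and Aldh18a1 were higher in every library with TTM than in any other library. Asns, asparagine synthetase, read 78.8, 77.5 and 74.99 TPM with CuO NPs and 136, 141 and 143 TPM with TTM (log2 fold change 0.85, SE 0.04, limma adjusted p = 1.13e-06), beside 41.4, 42.3 and 40.5 TPM in control. Slc7a11, the cystine importer that NRF2 also drives, read 90.6, 110.0 and 97.2 TPM with CuO NPs and 62.9, 49.0 and 44.1 TPM with TTM (log2 fold change -0.93, SE 0.13, limma adjusted p = 2.29e-04), beside 46.0, 38.4 and 38.8 TPM in control. The promoters of both genes hold the CHOP and ATF4 site, and the genes moved in opposite directions. Slc3a2, the partner chain of Slc7a11 in the transporter, also fell (-0.78), as did the stress sensor Sesn2 (-0.50) and the transcription factor Atf3 (-0.58). Ppp1r15a, which encodes GADD34, the factor that returns eIF2α to its active state, fell from 183 ± 7.4 TPM to 118 ± 14.2 TPM. Cytosolic aminoacyl-tRNA synthetases rose in 13 of 20 and fell in 3 (8 and 5 under median-of-ratios scaling), with Vars1 at 0.69 and Mars1 at 0.64. Chaperones of the endoplasmic reticulum were divided, 14 higher and 6 lower (12 and 10 under median-of-ratios scaling), and their median turned below 0 when libraries were centred on the median gene. Edem1, which sends misfolded glycoproteins to degradation, rose from 33.7 ± 3.16 TPM to 63.5 ± 1.71 TPM, and Dnajb9, a co-chaperone of BiP, fell from 22.4 ± 1.24 TPM to 12.9 ± 0.981 TPM.

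**Figure D3:**
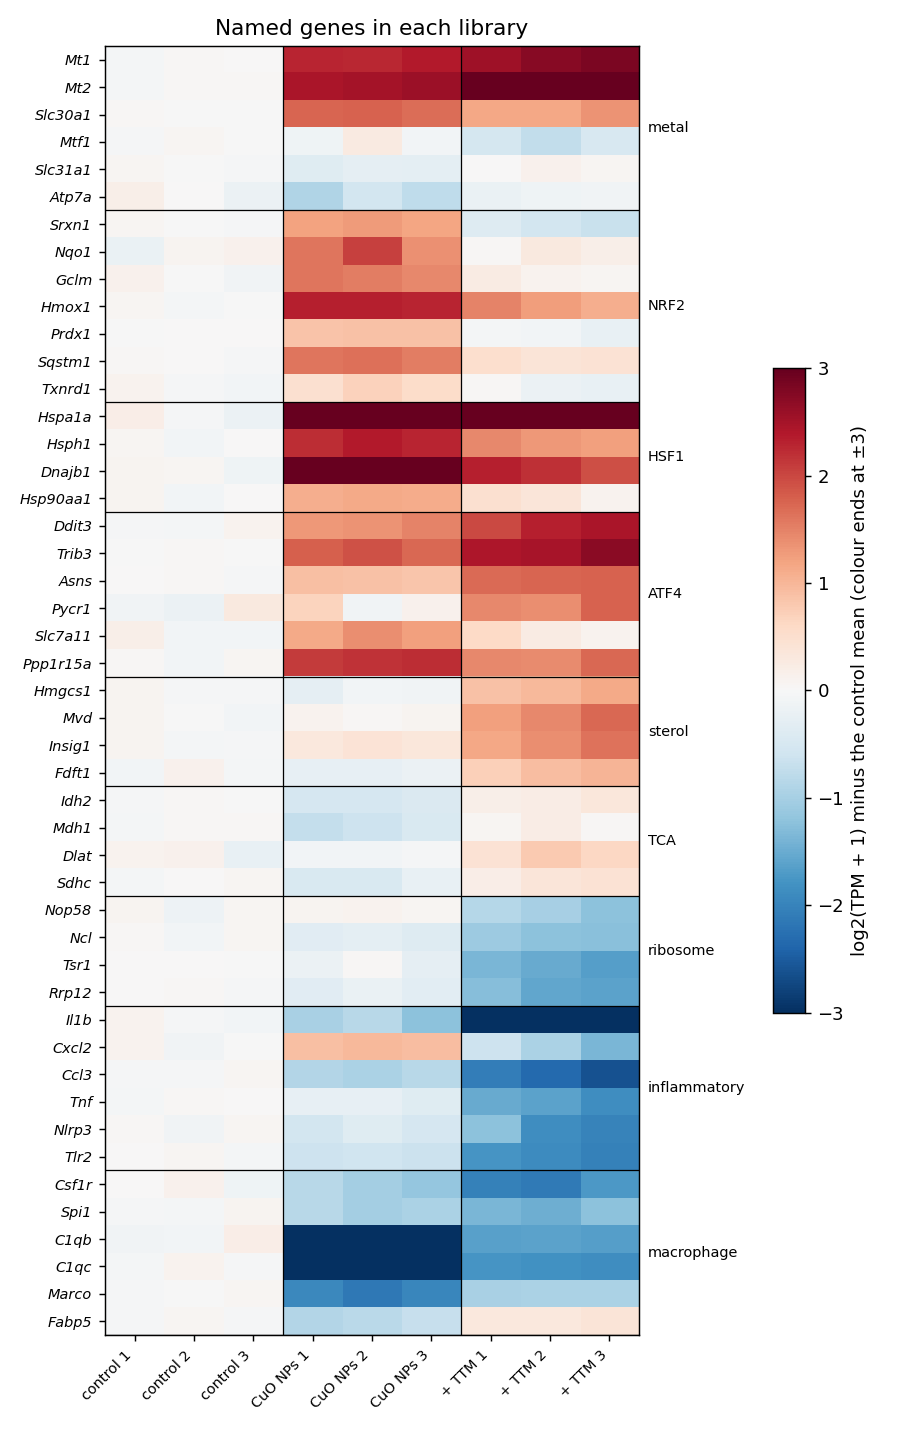
Log2(TPM + 1) of 47 genes in each of the 9 libraries, minus the mean of the 3 control libraries, with red for above and blue for below control and colour ending at ±3. Rows are grouped by the lists used in the text and vertical lines divide the 3 groups. Rows were picked by hand, and none is an NRF2 or inflammatory member that rose. NRF2, ribosome and inflammatory rows are lower with TTM than with CuO NPs alone, and sterol rows are higher. Srxn1 and Cxcl2 go from above control to below it.

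Cholesterol genes rose together with TTM. Of 23 tested, 21 rose and none fell, nor was any lower at an unadjusted limma p under 0.05 (20 rose under median-of-ratios scaling), with a median of 0.73. With libraries centred on their median gene 19 rose and 1 fell, and after quantile normalization 20 rose and 1 fell. The 2 not called under TPM were Ebp (-0.05) and Hsd17b7 (-0.05). Hmgcs1 (ENSMUSG00000093930), the first committed enzyme of the mevalonate route, read 34.9, 32.3 and 32.1 TPM in control, 27.1, 31.3 and 30.7 TPM with CuO NPs and 61.3, 66.4 and 74.1 TPM with TTM (log2 fold change 1.15, SE 0.08, limma adjusted p = 5.30e-06). Mvd, mevalonate diphosphate decarboxylase, read 24.9, 23.9 and 24.6 TPM and 55.8, 64.6 and 78.2 TPM (log2 fold change 1.39, SE 0.11, limma adjusted p = 7.46e-06), beside 24.7, 22.9 and 21.98 TPM in control. Both stood above control in every library with TTM, while Mvd overlapped control with particles alone. Insig1, which holds the sterol sensor in the endoplasmic reticulum, rose from 85.9 ± 2.85 TPM to 180.1 ± 28.4 TPM, and Fdft1, squalene synthase, from 17.7 ± 0.516 TPM to 39.4 ± 4.53 TPM. The median of the list was -0.20 against control with particles alone and 0.58 with TTM. Fatty acid synthesis genes rose in 12 of 15 (9 under median-of-ratios scaling), among them Acss2, which makes acetyl-CoA from acetate, from 22.03 ± 2.02 TPM to 56.2 ± 2.27 TPM, and the desaturase Scd2, from 332 ± 20.1 TPM to 569 ± 14.7 TPM. Those that fell were Me1, already given with the NRF2 targets, and the elongase Elovl1 (-0.38). Of 14 LXR targets and lipid efflux genes, 8 rose (7 under median-of-ratios scaling), with the sterol exporter Abcg1 going from 10.7 ± 0.939 TPM to 19.8 ± 2.02 TPM. The gene of LXRα itself, Nr1h3, was the 1 that fell, reading 9.02, 9.93 and 10.0 TPM with CuO NPs, 4.49, 3.54 and 4.71 TPM with TTM and 17.04, 16.3 and 15.6 TPM in control (log2 fold change -1.03, SE 0.10, limma adjusted p = 3.20e-05).

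Nuclear genes of the tricarboxylic acid cycle list rose in 20 of 23, with a median of 0.41. None was called lower by limma or lower at an unadjusted p under 0.05 (17 rose and 1 fell under median-of-ratios scaling). The list also holds enzymes linked to the mitochondrial cycle but outside it, such as Mdh1 and Pcx. Idh2, mitochondrial isocitrate dehydrogenase, read 113, 112 and 117 TPM with CuO NPs and 179.9, 186 and 203 TPM with TTM (log2 fold change 0.73, SE 0.05, limma adjusted p = 5.32e-06), and 156, 164 and 158 TPM in control. Mdh1, cytosolic malate dehydrogenase, rose from 126 ± 12.5 TPM to 207 ± 15 TPM, beside 191 ± 7.66 TPM in control, and Sdhc, a membrane anchor of succinate dehydrogenase, from 85.8 ± 7.99 TPM to 141 ± 10.8 TPM. The 3 not called were Pcx (-0.10), Suclg1 (0.08) and Sucla2 (0.12). Nuclear-encoded subunits of the respiratory chain rose in 38 of 69 and fell in 6, but in 12 and 9 under median-of-ratios scaling, so the count depended on the scaling. Uqcrq rose (0.75) and Uqcrh fell (-0.35), both subunits of complex III. The mitochondrially encoded mRNAs took 12.9% ± 0.468 of all TPM in control, 15.7% ± 0.213 with CuO NPs and 12.2% ± 1.04 with TTM. The 3 libraries with TTM were all below the 3 CuO NP libraries (exact permutation p = 0.1, two-sided, the smallest that 3 against 3 can give). Within that genome 5 of 13 mRNAs fell and 3 rose (5 and 0 under median-of-ratios scaling). mt-Nd1 read 10938, 10331 and 10484 TPM with CuO NPs and 6311, 5159 and 4531 TPM with TTM (log2 fold change -1.002, SE 0.10, limma adjusted p = 4.12e-05), beside 9828, 10549.8 and 11172 TPM in control. All 3 libraries with TTM were below both other groups. The others that fell were mt-Cytb (-0.81), mt-Atp8 (-0.41), mt-Co2 (-0.41) and mt-Nd2 (-0.41), of which mt-Nd2 (-0.02) and mt-Atp8 (-0.19) were not called after quantile normalization. Those that rose with TPM scaling were mt-Nd6 (0.28), mt-Nd5 (0.24) and mt-Co1 (0.22). Nuclear copies of mitochondrial sequences make the division of these reads uncertain. Among 29 glycolytic genes and HIF-1 targets, 16 rose and 7 fell (10 and 7 under median-of-ratios scaling), and 4 fell without CuO NPs replicate 3. Aldoc, an aldolase, read 15.7, 12.8 and 16.8 TPM with CuO NPs and 38.0, 37.1 and 37.9 TPM with TTM (log2 fold change 1.27, SE 0.09, limma adjusted p = 6.14e-06), and the phosphofructokinase Pfkm rose from 20.5 ± 0.722 TPM to 44.3 ± 1.01 TPM. Pkm, pyruvate kinase, fell from 2361 ± 30.9 TPM to 1882 ± 66.8 TPM.

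Ribosome biogenesis genes fell in 41 of 50 and rose in 3 (45 and 1 under median-of-ratios scaling), with a median of -0.48. Against control the median was -0.14 with particles alone and -0.65 with TTM. Tsr1, needed to mature the small subunit, read 78.7, 78.4 and 77.3 TPM in control, 69.2, 79.5 and 64.8 TPM with CuO NPs and 29.4, 26.9 and 24.2 TPM with TTM (log2 fold change -1.37, SE 0.08, limma adjusted p = 2.63e-06). Nop58, a core protein of box C/D particles, read 366, 310.3 and 359.9 TPM, 363, 369 and 357 TPM and 190.5, 171 and 146 TPM in the same order (log2 fold change -1.10, SE 0.09, limma adjusted p = 1.23e-05). For both, the libraries with TTM were far below the other 6. Rrp12 (-1.19) and Noc3l (-1.09) fell, and nucleolin, Ncl, fell from 522 ± 17.9 TPM to 289 ± 18.4 TPM. The 3 that rose were Noc2l (0.25), Nop9 (0.16) and Myc, the transcription factor that drives ribosome genes. Myc read 7.05, 7.46 and 7.97 TPM with CuO NPs and 16.8, 18.5 and 20.1 TPM with TTM, beside 15.3, 14.4 and 14.6 TPM in control (log2 fold change 1.19, SE 0.08, limma adjusted p = 4.71e-06). The call of Noc2l was lost under median-of-ratios scaling (0.12). That of Nop9 was lost there (0.04), with the replicate block (limma adjusted p = 0.0733), and without any 1 of 5 libraries, all but CuO NPs replicate 2 (limma adjusted p from 0.066 to 0.12). Cytosolic ribosomal protein mRNAs were called higher in 38 of 74 and lower in 3, but in 7 and 6 under median-of-ratios scaling, so their direction depends on the scaling (1 was lower without any 1 of 5 libraries, all but CuO NPs + TTM replicate 2), and their pseudogenes make the division of reads uncertain. Mitochondrial ribosomal proteins were divided, 18 higher and 24 lower (10 and 31 under median-of-ratios scaling).

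Mitotic genes, whose median was -0.73 against control with particles alone, rose with TTM in 24 of 40 and fell in 3 (17 and 6 under median-of-ratios scaling), and 1 fell without CuO NPs + TTM replicate 3. Cdc25b, the phosphatase that starts mitosis, read 63.9, 63.1 and 61.5 TPM in control, 29.9, 33.6 and 36.2 TPM with CuO NPs and 77.3, 77.1 and 81.2 TPM with TTM (log2 fold change 1.22, SE 0.07, limma adjusted p = 1.48e-06). Aurkb, the kinase of the chromosomal passenger complex, read 71.8, 70.0 and 70.2 TPM, 51.3, 50.2 and 48.4 TPM and 94.7, 98.3 and 103 TPM in that order (log2 fold change 0.97, SE 0.05, limma adjusted p = 9.33e-07). Both stood above control with TTM. Ccnb2, cyclin B2, rose by 0.80 and the centromere histone Cenpa by 0.81, while Cenpa remained below control at 86.1 ± 8.03 TPM against 143 ± 7.19 TPM. Lower were the kinesins Kif23 (-0.40) and Kif20a (-0.33) and the kinetochore protein Ndc80 (-0.20). The call of Kif23 was lost without CuO NPs + TTM replicate 2 (-0.33) or 3 (-0.31), and that of Ndc80 without CuO NPs replicate 2 (-0.20) or 3 (-0.16) or CuO NPs + TTM replicate 3 (-0.16), and with the replicate block (limma adjusted p = 0.0508). Of 42 DNA replication genes, 10 rose and 12 fell (4 and 21 under median-of-ratios scaling). Pold1, the catalytic subunit of polymerase delta, rose by 0.71, and the S-phase cyclins Ccne2 (-1.01) and Ccne1 (-0.66) fell. Of 14 replication-dependent histone genes, whose mRNAs mostly lack the poly(A) tail that the library kit selects, 3 rose and 2 fell (3 and 2 under median-of-ratios scaling), and both that fell passed the filter only through the CuO NP libraries. Without 1 CuO NP library 11 to 12 were tested and none fell by limma.

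Inflammatory genes were mostly lower with TTM, and Il1b, Fpr2 and Cxcl2 were below every library of both other groups. The inflammatory and NF-kB list had 29 of 45 members that fell and 5 that rose (33 and 3 under median-of-ratios scaling), with a median of -0.55. Of the 29, 4 passed the filter only through the CuO NP libraries where they are high, Il1b and Gpr84 among them, and without any 1 CuO NP library 41 members were tested and 24 to 26 fell. The list's median was -0.43 against control with particles alone and -0.99 with TTM. Il1b (ENSMUSG00000027398), interleukin 1 beta, read 19.4, 17.4 and 16.8 TPM in control, 8.67, 9.51 and 7.09 TPM with CuO NPs and 0.83, 0.65 and 0.38 TPM with TTM (log2 fold change -2.54, SE 0.14, limma adjusted p = 1.30e-06). All 3 libraries with TTM were below 1 TPM. Fpr2, a receptor for formyl peptides, read 42.6, 41.4 and 44.5 TPM, 23.2, 21.9 and 24.3 TPM and 5.31, 3.59 and 2.04 TPM in that order (log2 fold change -2.44, SE 0.21, limma adjusted p = 1.33e-05). Cxcl2, a chemokine for neutrophils, read 193, 167 and 176 TPM in control, 336, 349.9 and 339 TPM with CuO NPs and 116, 91.3 and 68.0 TPM with TTM (log2 fold change -1.92, SE 0.15, limma adjusted p = 8.66e-06). It was thus above control with particles alone and below control with TTM, with no overlap between the groups. Ccl3, another chemokine, fell from 721 ± 27.2 TPM to 264 ± 48.8 TPM and the cytokine gene Tnf from 41.0 ± 1.97 TPM to 15.3 ± 1.96 TPM. Trem1, an amplifying receptor of myeloid cells (-2.39), and Gpr84, a receptor for medium-chain fatty acids (-2.36), fell as well. The 5 that rose were Ccl12, Ccl9, Nos2, Malt1 and Tnfaip3, and the call of Ccl9 was lost under median-of-ratios scaling (0.31). Tnfaip3, which encodes A20, a brake on NF-kB, rose from 19.5 ± 1.19 TPM to 33.1 ± 2.72 TPM and Nos2, inducible nitric oxide synthase, from 48.1 ± 0.8 TPM to 73.2 ± 3.07 TPM. Among 30 Toll-like receptor and inflammasome genes, 12 fell and 6 rose (17 and 4 under median-of-ratios scaling). Tlr2, the receptor for bacterial lipopeptides, fell from 40.1 ± 0.766 TPM to 16.0 ± 1.59 TPM and Nlrp3, an inflammasome sensor, from 10.2 ± 0.754 TPM to 3.91 ± 1.5 TPM. Members that rose included the adaptor Ticam2, from 4.70 ± 0.468 TPM to 12.4 ± 0.515 TPM, and the pore-forming Gsdmd (0.42). Of 26 immediate early genes, 14 fell and 3 rose (16 and 3 under median-of-ratios scaling), with Ier3 at -1.16 and Ier5 at -1.02. Of the 14, 1 passed the filter only through the CuO NP libraries. Without any 1 CuO NP library 25 were tested and 12 to 13 fell. Without CuO NPs + TTM replicate 3, 5 rose. The 3 that rose with all libraries were Myc, the nuclear receptor Nr4a1 (1.02) and Zfp36 (1.12), whose protein destabilises cytokine mRNAs. Interferon-stimulated genes showed no common direction, 16 higher (34.8%) and 13 lower (28.3%) of 46, beside 35.8% and 19% of all genes tested. Under median-of-ratios scaling 10 were higher and 17 lower. Of the 13, 1 passed the filter only through the CuO NP libraries, so its direction was set by the filter. Ifitm3 was at 0.78 and Gbp3 at -1.02, and 8 members were lower without CuO NPs replicate 2. Of 20 genes of MHC class I presentation, 11 rose and 3 fell (9 and 3 under median-of-ratios scaling), and the immunoproteasome subunits Psmb9 and Psmb8 rose by 1.00 and 0.72.

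Macrophage genes moved in both directions, with the C1q chains higher and Csf1r lower. Of 29 macrophage core genes, 15 rose and 5 fell, and under median-of-ratios scaling 10 rose and 9 fell. C1qb, a chain of complement C1q, read 32.2, 32.8 and 39.9 TPM in control, 2.08, 2.45 and 2.31 TPM with CuO NPs and 10.6, 10.7 and 10.4 TPM with TTM (log2 fold change 1.82, SE 0.10, limma adjusted p = 1.15e-06). C1qc rose by 1.35 and C1qa by 0.89, and all 3 chains stayed below every control library. Csf1r, the receptor of macrophage colony-stimulating factor, read 175, 189.6 and 159 TPM in control, 97.8, 85.2 and 77.0 TPM with CuO NPs and 42.0, 39.4 and 51.6 TPM with TTM (log2 fold change -0.95, SE 0.11, limma adjusted p = 1.03e-04). Spi1, which encodes PU.1, the transcription factor of the lineage, read 140.0, 124 and 129 TPM with CuO NPs and 96.2, 90.3 and 106 TPM with TTM, beside 246, 243 and 265 TPM in control (log2 fold change -0.42, SE 0.07, limma adjusted p = 6.81e-04). Both fell where the C1q chains rose. The other 3 that fell were the lipopolysaccharide co-receptor Cd14 (-0.51), the Fc receptor Fcgr3 (-0.36) and the lectin Lgals3 (-0.14). Of the 12 tested alveolar macrophage genes, 8 rose and 2 fell (8 and 4 under median-of-ratios scaling), with a median of 0.80. Of the 8, 1 passed the filter only through the libraries with TTM, so its direction was set by the filter. Without any 1 of those libraries 11 were tested and 7 rose. With no filter 22 were tested, 10 rose and 2 fell, and the median was -0.01. Marco (ENSMUSG00000026390), the scavenger receptor for particles, read 764, 784 and 819.7 TPM in control, 206, 177 and 202 TPM with CuO NPs and 399, 407 and 409.9 TPM with TTM (log2 fold change 1.05, SE 0.06, limma adjusted p = 1.48e-06). Fabp5, a fatty acid binding protein, read 230.2, 246 and 229.6 TPM, 127, 134 and 146 TPM and 295, 293 and 308 TPM in that order (log2 fold change 1.13, SE 0.06, limma adjusted p = 9.33e-07). Marco stayed below control with TTM, and Fabp5 was above it. The 2 that fell were the chitinase-like Chil3 (-0.56) and the transcription factor Cebpa (-0.83). Spp1, osteopontin, a secreted phosphoprotein of macrophages, had 10826, 11055 and 11187 TPM in control, 1779, 1710.0 and 1892 TPM with CuO NPs and 5537, 5900.4 and 5568 TPM with TTM (log2 fold change 1.66, SE 0.05, limma adjusted p = 7.58e-08). Gpnmb, a glycoprotein of lysosome-rich macrophages, rose from 966 ± 21 TPM to 1937 ± 48.2 TPM, beside 1925 ± 64 TPM in control.

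Lysosomal genes rose in 27 of 47 and fell in 4 (25 and 9 under median-of-ratios scaling), with a median of 0.28. Mcoln1, the lysosomal calcium channel, rose by 0.84. All 4 that fell were subunits of the proton pump, Atp6v1d (-0.49), Atp6v1h (-0.25), Atp6v1b2 (-0.22) and Atp6v0b (-0.17), and the call of Atp6v1b2 was lost without CuO NPs replicate 2 (-0.16) or CuO NPs + TTM replicate 2 or 3 (both -0.20). Autophagy genes were divided, 13 higher (41.9%) and 8 lower (25.8%) of 31, beside 35.8% and 19% of all genes tested. Under median-of-ratios scaling 11 were higher and 12 lower. The kinases that start autophagy, Ulk1 and Ulk2, rose from 14.9 ± 1.42 TPM to 28.6 ± 1.57 TPM and from 1.67 ± 0.117 TPM to 4.70 ± 0.427 TPM, while Atg3, an enzyme that attaches LC3 to membranes, fell (-0.47). Of 27 p53 targets, 10 rose (37.0%) and 7 fell (25.9%), close to the same 35.8% and 19%, and 8 rose and 12 fell under median-of-ratios scaling. Mdm2, the ubiquitin ligase of p53, read 45.5, 36.6 and 39.8 TPM in control, 73.0, 90.2 and 85.5 TPM with CuO NPs and 42.9, 41.3 and 36.8 TPM with TTM (log2 fold change -1.02, SE 0.10, limma adjusted p = 3.22e-05). The death gene Bbc3, which encodes PUMA and is also driven by CHOP, rose from 5.24 ± 0.804 TPM to 12.9 ± 3.37 TPM. In the BCL2 family 3 of 15 rose and 3 fell (2 and 4 under median-of-ratios scaling). Bcl2 rose from 1.32 ± 0.0794 TPM to 4.03 ± 0.125 TPM, and Bid, which links death receptors to mitochondria, fell from 65.9 ± 3.67 TPM to 36.1 ± 2.01 TPM. Of 16 circadian clock genes, 10 rose and 2 fell (9 and 3 under median-of-ratios scaling). Nr1d1, the repressor REV-ERBα, read 6.55, 7.30 and 5.48 TPM in control, 4.61, 3.81 and 4.91 TPM with CuO NPs and 16.3, 20.6 and 25.9 TPM with TTM (log2 fold change 1.99, SE 0.16, limma adjusted p = 1.14e-05). Dbp, a clock output factor, rose from 5.63 ± 0.816 TPM to 16.4 ± 1.66 TPM, and Cry1, a repressor of the clock, fell from 12.3 ± 0.588 TPM to 6.84 ± 1.11 TPM. All samples were taken at 1 time, so no rhythm can be read from them.

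**Figure D4:**
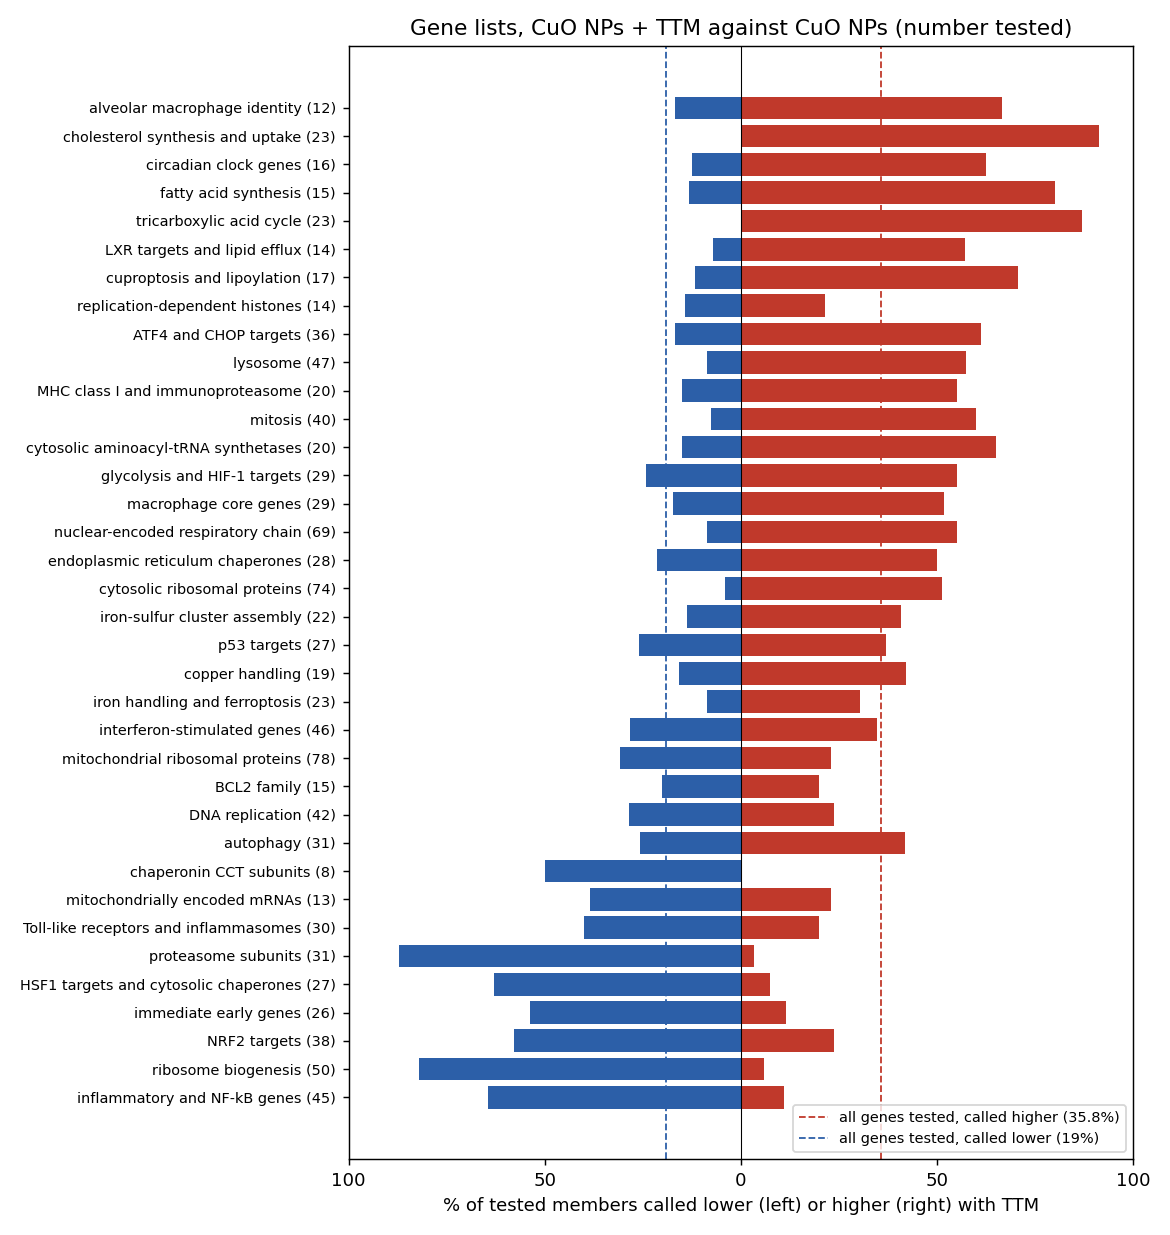
Percent of the tested members of each list called higher (red, to the right) or lower (blue, to the left) in CuO NPs + TTM against CuO NPs, for lists with at least 8 tested members, ordered by median. Dashed lines mark 35.8% and 19%, the shares of all genes tested that were called higher and lower. Proteasome, ribosome biogenesis and inflammatory lists extend far to the left, and cholesterol and tricarboxylic acid cycle lists far to the right.

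The largest changes among genes of at least 5 TPM in a group were of several kinds. Id1 (ENSMUSG00000042745), an inhibitor of helix-loop-helix transcription factors, read 208, 204 and 193 TPM in control, 80.6, 77.1 and 86.3 TPM with CuO NPs and 20.3, 21.2 and 18.3 TPM with TTM (log2 fold change -1.98, SE 0.07, limma adjusted p = 1.74e-07). Id3, its close relative, read 78.5, 80.8 and 78.7 TPM, 84.6, 84.7 and 80.9 TPM and 20.3, 22.1 and 16.5 TPM in that order (log2 fold change -2.04, SE 0.09, limma adjusted p = 6.73e-07). For Id3 the other 6 libraries lay between 78.5 and 84.7 TPM, well above the 3 with TTM. Il1f9, which encodes interleukin 36 gamma, read 11.4, 12.1 and 9.36 TPM in control, 28.7, 31.3 and 31.7 TPM with CuO NPs and 5.44, 4.63 and 4.61 TPM with TTM (log2 fold change -2.42, SE 0.10, limma adjusted p = 6.73e-07). Treml4, a receptor of the TREM family, read 18.9, 18.4 and 20.2 TPM and 3.85, 2.85 and 2.06 TPM (log2 fold change -2.39, SE 0.15, limma adjusted p = 2.68e-06), beside 4.37, 3.92 and 4.14 TPM in control. Both were above control with particles alone. Pilrb1 (-2.05) and Pilrb2 (-2.10), activating receptors that are paralogs of each other and may share reads, fell, as did Fpr3 (-2.34). Tex19.1, a gene of the germ line, reached 6.08 ± 0.788 TPM with CuO NPs and 0.647 ± 0.215 TPM with TTM, against 0.113 ± 0.106 TPM in control, and passed the filter only through the CuO NP libraries. Igsf6, a membrane protein of the immunoglobulin superfamily, fell from 16.4 ± 0.696 TPM to 3.44 ± 0.89 TPM, and the small RNA Rprl3 had 10.8, 10.4 and 15.6 TPM with CuO NPs and 0.99, 0 and 4.64 TPM with TTM.

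Among the rises, Pkd2l1 (ENSMUSG00000037578), an ion channel of the polycystin family, read 59.3, 56.3 and 56.1 TPM in control, 36.0, 37.0 and 39.6 TPM with CuO NPs and 185, 185 and 168 TPM with TTM (log2 fold change 2.23, SE 0.06, limma adjusted p = 4.00e-08). Rufy4, which promotes autophagosome formation, read 4.79, 4.56 and 5.02 TPM and 24.3, 26.0 and 30.4 TPM (log2 fold change 2.26, SE 0.10, limma adjusted p = 8.63e-07), beside 6.06, 4.96 and 5.47 TPM in control. Mxd1, which opposes MYC on DNA, read 6.01, 6.45 and 5.58 TPM with CuO NPs and 27.1, 27.9 and 30.1 TPM with TTM, beside 12.5, 12.1 and 12.7 TPM in control (log2 fold change 2.07, SE 0.08, limma adjusted p = 3.15e-07). In all 3 genes the libraries with TTM were the highest of the 9. Tspoap1 rose from 1.79 ± 0.664 TPM to 17.6 ± 3.65 TPM, Mapre3, a microtubule end-binding protein, from 2.43 ± 0.578 TPM to 12.1 ± 0.211 TPM, and Ppp6r2, a phosphatase subunit, from 9.01 ± 2.03 TPM to 36.7 ± 8.85 TPM. Ypel3 rose by 1.98, with 32.7, 35.7 and 71.0 TPM in the libraries with TTM. Ppm1k, a mitochondrial phosphatase that activates branched-chain ketoacid dehydrogenase, rose by 1.82, Mcf2l by 1.88 and Zfr2 by 1.86. Snora65, a small nucleolar RNA that selection of polyadenylated RNA should largely miss, is listed at 0 in all 3 CuO NP libraries, at 0, 49.3 and 23.1 TPM in control and at 184, 156 and 152 TPM with TTM. The defensin gene Defb25 had 0, 0 and 0.88 TPM with CuO NPs and 5.71, 1.87 and 11.2 TPM with TTM, and the histone gene Hist1h4k 0, 1.80 and 0.7 TPM and 8.01, 7.43 and 3.35 TPM. Snora65 and Defb25 passed the filter only through the libraries with TTM, where they are high, so their place among the rises was set by it.

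Markers of granulocytes moved with the inflammatory genes. Of the 13 listed, 7 were tested and 5 fell, under both scalings. None was called higher by limma or was higher at an unadjusted p under 0.05, and 1 rose without CuO NPs + TTM replicate 3. Between 5 and 6 were tested and 4 to 5 fell when 1 CuO NP library was left out. The sum of all 13 ranged from 395 to 411 TPM in control, from 212 to 232 TPM with CuO NPs and from 70.1 to 78.6 TPM with TTM. S100a8 and S100a9 made up 96.8% to 97.1% of this sum in control, 92.9% to 93.7% with CuO NPs and 89.5% to 89.9% with TTM. The part of these transcripts in the inflammatory result was not tested. S100a8, a chain of calprotectin that stimulated macrophages also make, read 331, 347 and 328 TPM in control, 197, 198 and 183 TPM with CuO NPs and 67.0, 60.0 and 64.5 TPM with TTM (log2 fold change -1.58, SE 0.05, limma adjusted p = 1.77e-07), and S100a9 (-2.06), the other chain, fell too. Ly6g, the surface marker of neutrophils, read 0.5, 0.37 and 0.08 TPM in control, 2.87, 3.06 and 2.37 TPM with CuO NPs and 0.08, 0.21 and 0.18 TPM with TTM. It was thus higher with CuO NPs than in control, where S100a8 and S100a9 were lower, and it passed the filter only through the CuO NP libraries. Cpa3, Mcpt4 and Fcer1a, markers of mast cells, were at 0 in all 9 libraries. The lymphocyte gene Cd3e was called higher, with 0.15, 0.16 and 0.31 TPM and 2.27, 2.11 and 1.60 TPM, passed the filter only through the libraries with TTM, and fell below it when any of them was left out. Cd8a, Ncr1, Trbc1 and Trbc2 were at 0 in all libraries. The sum of 11 fibroblast markers went from 12.2 to 13.0 TPM with CuO NPs to 5.16 to 6.83 TPM with TTM. In control this sum was 18.9 to 21.1 TPM, so it was already lower with particles alone. The fall with TTM was mostly through Acta2, which went from 8.60 ± 0.714 TPM to 2.81 ± 0.325 TPM. The endothelial marker Vwf had 10.2, 10.9 and 9.20 TPM with CuO NPs and 14.0, 12.7 and 11.3 TPM with TTM and was not called.

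**Figure D5:**
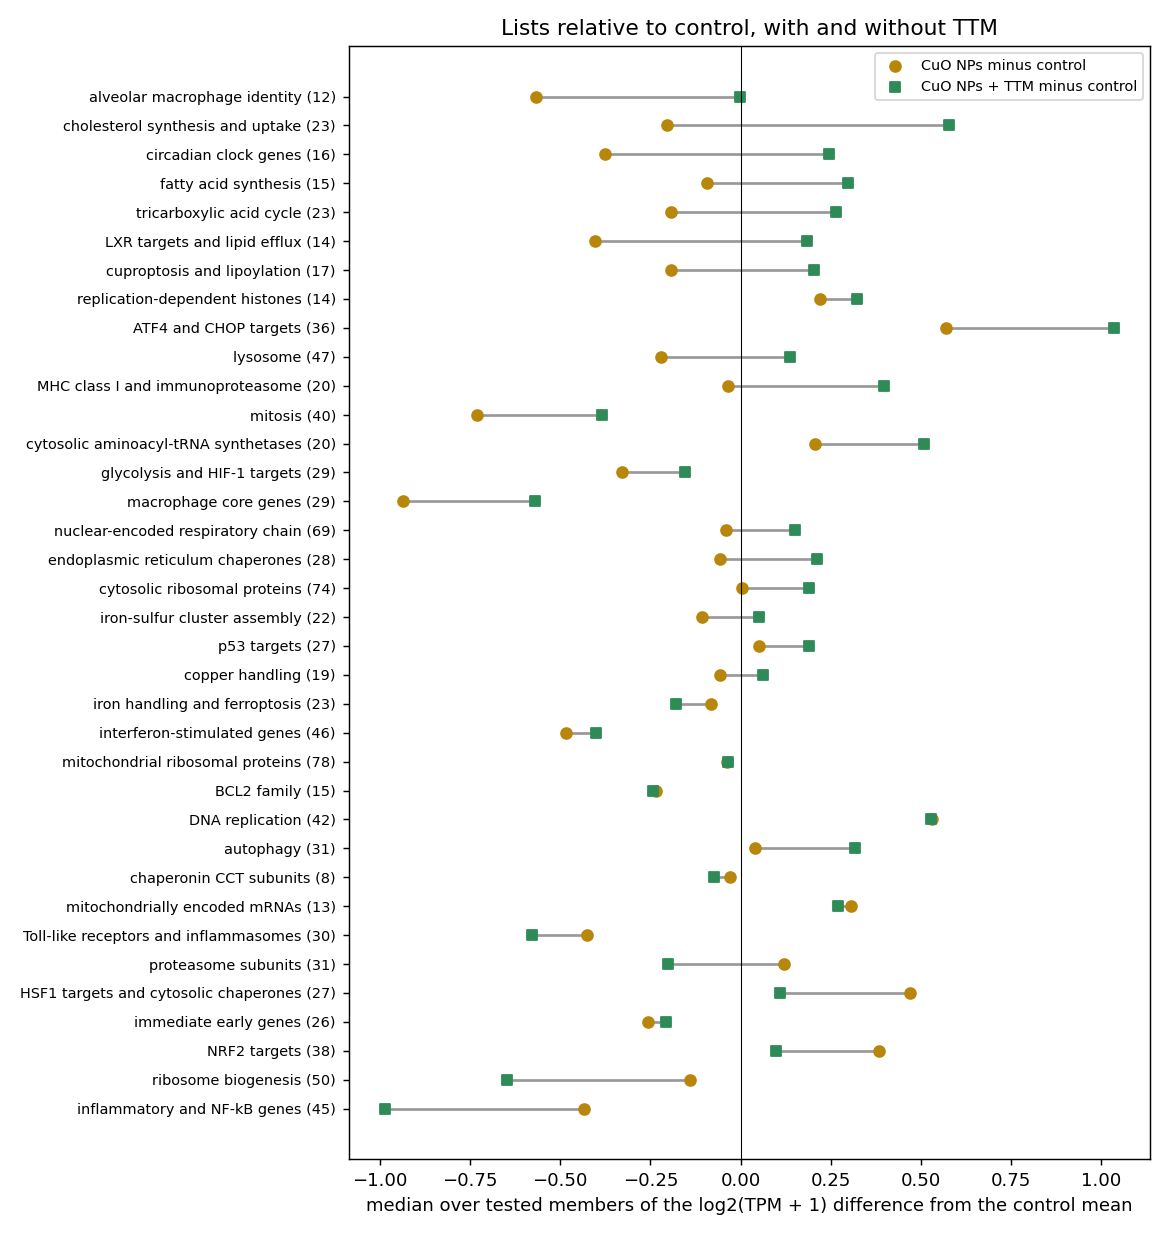
Median over the tested members of each list of the log2(TPM + 1) difference from the control mean, for CuO NPs (circles) and for CuO NPs + TTM (squares), in the order of the plot of called shares, with the number of tested members in brackets. Both differences use the same 3 control libraries. NRF2, HSF1 and tricarboxylic acid cycle medians with TTM lie nearer to 0 or past it, and ATF4, inflammatory and ribosome biogenesis medians lie further from 0.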

How the data were processed

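The authors deposited 1 table of gene values in TPM for 9 libraries (3 control, 3 CuO NPs, 3 CuO NPs + TTM). Per the labels' protocols, polyadenylated RNA was sequenced in pairs of reads with a stranded kit. Per the submitters' processing notes, the tools were DESeq2, RSEM, HISAT2 and fastp and the build GRCm39, with no version or order stated. Whether reads were assigned by strand is not given in the sources used here, which makes the division of reads between overlapping sense and antisense genes uncertain. TPM gives no read counts, so depth is unknown and no counting interval is given.

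Symbols came from a GENCODE annotation matched by Ensembl identifier (52073 of 56980, and 301 of the genes tested had none). Genes reaching 1 TPM in 3 or more of the 6 libraries compared were tested two-sided on log2(TPM + 1) of all 9 libraries by limma's trended empirical Bayes fit (limma 3.58.1, R 4.3.3), with Benjamini-Hochberg adjustment over all 12459 genes. The control libraries entered for 1 shared estimate of the spread. The filter's edge held 168 genes whose third-highest value was 1 to 1.1 TPM and 203 just below, at 0.9 to 1 TPM. The fit was tested on simulated data. Python 3.11.15 with pandas 2.3.3, numpy 2.4.6 and matplotlib 3.10.9 made the tables and plots.

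The comparison, the 42 gene lists and the rule for named genes were chosen with earlier results of these data known. The rule took, from called genes with no overlap of the groups, the 15 highest and 15 lowest changes, given a group mean of 5 TPM or more and no predicted-gene name. It added up to 4 called members per list and direction, or the member of highest TPM where none was called, and 20 genes named outright. This gave 276 genes. A further 21, among them Prdx1, Txnrd1, Hsp90aa1, Trib3, Asns, Insig1, Ncl, Cxcl2, Ccl3, Tnf, Spp1 and Gpnmb, were chosen after their values were seen, as were members named because a count was 5 or fewer. A gene on several lists was counted under each. The genes named or drawn in the figures were picked by hand. A few genes that the rule names are not reported here. Lists are described by counts and medians without a test of their own. Promoter windows and sequences came from RefSeq on GRCm38.p6, and GC content from transcripts of the same annotation as the symbols.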

Additional observations from a re-analysis of the deposited data

How the results depend on the processing

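The number of genes called stayed within 1.5 times of 6830 under every alternative run, from 5021 at an adjusted p below 0.01 to 7175 with library weights. Leaving out each of the 6 libraries in turn gave 6000 to 6379 calls, 3891 to 4465 higher, 1914 to 2383 lower and 673 to 756 of at least 2-fold. With libraries centred on their median gene, 2846 were higher and 4060 lower. The count of changes of at least 2-fold was 1207 with a pseudocount of 0.1 and 212 with a pseudocount of 5. The median of all genes, 0.12 with TPM scaling, was 0.0027 under median-of-ratios scaling, -0.0587 when centred, -0.0023 after quantile normalization and 0.0686 without mitochondrially encoded genes.

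Of the 297 genes named by rule or added, 263 kept their direction and their side of the threshold under every alternative in which they were tested. Genes left out of an alternative, as Cd3e was when a library with TTM was removed, were not counted as changed there. Reversed were Mcl1 (-0.025) and Nop9 (-0.015), both when centred, and neither was called there, and 14 other genes lost their call in that setting and 12 under median-of-ratios scaling. The GC correction, chosen after seeing the data, gave 6774 calls and lost 4 of the named genes.

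Samples with the same replicate number in the titles showed no shared deviation. Deviations of same-numbered CuO NP and TTM libraries correlated at -0.11, -0.06 and -0.13. With 3 libraries per group, these values cannot tell whether the cultures were run in matched sets. With the replicate block 6512 genes were called, 4255 higher and 2257 lower. Read depth is unknown, and genes under 5 TPM had a median SE of 0.16 against 0.06 in the most abundant class.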

Other observations

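Several gene groups outside the lists were noted only after the values of all genes were seen, so they are given as values without a test of the group. The receptors encoded by Pilra, Pilrb1 and Pilrb2, relatives whose sequences may share reads, were all lower with TTM, Pilra going from 39.3 ± 1 TPM to 11.2 ± 1.43 TPM beside 37.1 ± 1.05 TPM in control. The formyl peptide receptor Fpr1 fell with Fpr2 and Fpr3, from 3.38 ± 0.431 TPM to 0.18 ± 0.238 TPM, and passed the filter only through the CuO NP libraries. Id2, a relative of Id1 (-1.98) and Id3 (-2.04), fell less (-0.31). Among single genes, Klhl24 rose from 13.2 ± 1.78 TPM to 43.7 ± 4.85 TPM, Ccng2 from 4.95 ± 0.297 TPM to 18.7 ± 3.44 TPM, Ypel2 from 2.07 ± 0.8 TPM to 8.26 ± 3.13 TPM and Pik3ip1, an inhibitor of phosphoinositide 3-kinase, from 0.977 ± 0.225 TPM to 4.09 ± 0.435 TPM. Tsc22d3, a glucocorticoid-induced gene, read 47.3, 46.0 and 45.7 TPM with CuO NPs and 89.7, 110.1 and 136 TPM with TTM, and Mxi1, which opposes MYC as Mxd1 does, rose by 0.80.

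Grouping tested genes by the letters of their symbols before the first digit gave 189 families of at least 8 genes, which hold unrelated genes where letters are shared by accident. Ordered by median log2 fold change, the 4 lowest were Ccl, chemokines (-0.62, 6 of 10 lower and 2 higher), Utp, proteins that process the small ribosomal subunit (-0.44, 8 of 10 lower and 0 higher), Tlr, Toll-like receptors (-0.40, 4 of 8 lower and 1 higher), and Nol, nucleolar proteins (-0.40, 7 of 8 lower and 1 higher). The 4 highest were Coq, enzymes of coenzyme Q synthesis (0.63, 7 of 11 higher and 1 lower), Stard, lipid transfer proteins (0.62, 6 of 9 higher and 0 lower), Dennd, activators of Rab proteins (0.55, 9 of 12 higher and 0 lower), and Nek, kinases (0.54, 5 of 8 higher and 1 lower). Both mitochondrial ribosomal RNAs in the table were called lower with TTM. These counts are under TPM scaling, where 35.8% of all genes tested were higher and 19% lower.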
